A study of Mus musculus with 16 samples.

Results

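The genes described are the protein-coding genes of mouse chromosome 12 (mm10), taken with a mean level of at least 4 over the 16 cell lines, outside the interval from 109.4 to 110.3 Mb and without Dnmt3a. The chromosome itself was chosen by its measured MEF-1 minus MEF-2 difference, and the members were selected on their mean level. These conditions left 447 genes of the 641 protein-coding genes of the chromosome in the table, and the table held 21810 protein-coding genes in all. Levels are the deposited regularised log2 values (rlog). A step of 1 stands for a 2-fold change in RNA, but the transform shrinks differences of genes with few reads. The lowest members by mean level were Serpina3f (mean 4.05, MEF-1 minus MEF-2 difference 0.19) and Serpina3i (mean 4.10, difference −0.28), and just outside lay Batf (mean 3.93, difference −0.89) and Pygl (mean 3.91, difference 2.97).

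RNA-seq of total RNA was run on mouse embryonic fibroblasts (MEFs), connective tissue cells grown here from C57BL/6J embryos at E13.5 and immortalised by passaging them through crisis. MEF-1 and MEF-2 are the lines from 2 sibling embryos, a male and a female, so embryo and sex cannot be told apart between the sets. Each set has its parental line and 7 clonal lines, each of them grown from 1 sorted cell of that parental line, with no treatment. Every line has 1 library, so the spread between clonal lines is between separate cell lines and each parental line stands without a replicate. The fibroblast markers Col1a1, Col1a2, Col3a1, Vim and Fn1 were among the highest genes in all lines (Col1a1 20.28 to 21.42), although Thy1 was only at 2.70 to 3.44 in MEF-1 lines and at 3.42 to 8.02 in MEF-2 lines. Markers of other cell types were mixed. Krt8 and Cdh5 stayed below 1 and Adgre1 and Sox10 below 0 in every line, while over all lines the epithelial Cdh1 ran from 6.46 to 8.38, the endothelial Tek from 3.79 to 6.54 and the haematopoietic Csf1r from 4.54 to 8.28 and Cd68 from 4.35 to 5.40. The neural marker Sox2 ran from 1.43 to 7.46 in MEF-1 lines and from 1.21 to 1.64 in MEF-2 lines. Nes (9.58 to 10.77 in MEF-1, 12.24 to 13.66 in MEF-2) and Tubb3 (9.46 to 10.77 and 11.63 to 12.93), also neural, were higher in every MEF-2 line than in any MEF-1 line, and the part of these markers in the differences between the sets was not tested. Read depth is unknown, since no counts were used here.

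The RNA of a gene depends, among other things, on how many DNA copies of it a cell holds. Cultured fibroblasts that pass through crisis are known to gain and lose chromosomes, and when a whole chromosome changes in copy number most of its genes are known to shift in RNA together, while feedback or cell state can hold single genes elsewhere. The study's methods call chromosomes 12, 18 and 19 aneuploid in 1 or more of the lines, from the read coverage of its DNA libraries, and leave them out of the methylation analyses. The study's supplement describes lower DNA coverage of the chromosome described here in some or all MEF-1 lines than in MEF-2 lines. From this it proposes a monosomy in those MEF-1 lines. Copy number itself was not analysed here, and what follows is RNA. Fewer cells carrying a given RNA and less of it per cell cannot be told apart in these bulk libraries.

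Start-site sequences of 4 members are shown to place 1 gene that moved with the chromosome, 1 far below it and 2 far above it beside each other. Each is the RefSeq window of GRCm38.p6 from 250 bases before to 50 bases after the gene's start, read along the gene's strand, with every CpG dinucleotide in capitals. Coq6, which encodes an enzyme of coenzyme Q synthesis, lies at chr12:84361718-84362017 (+) with 12 CpGs. Coch, for the matrix protein cochlin, lies at chr12:51593091-51593390 (+) with 32. Efr3b, for a membrane anchor of a phosphatidylinositol 4-kinase complex, lies at chr12:4038866-4039165 (−) with 24. Pax9, for a transcription factor of skeletal and pharyngeal development, lies at chr12:56695221-56695520 (+) with 11. In GENCODE M21, which gave the positions elsewhere, Coq6 starts at 84361657 and Pax9 at 56691767, both before the windows shown.
Coq6: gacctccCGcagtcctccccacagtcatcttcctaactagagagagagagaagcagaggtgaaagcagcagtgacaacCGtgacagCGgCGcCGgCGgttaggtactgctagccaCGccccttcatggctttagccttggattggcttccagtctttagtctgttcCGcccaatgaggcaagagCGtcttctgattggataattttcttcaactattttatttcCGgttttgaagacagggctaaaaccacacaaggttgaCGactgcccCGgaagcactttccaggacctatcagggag
Coch: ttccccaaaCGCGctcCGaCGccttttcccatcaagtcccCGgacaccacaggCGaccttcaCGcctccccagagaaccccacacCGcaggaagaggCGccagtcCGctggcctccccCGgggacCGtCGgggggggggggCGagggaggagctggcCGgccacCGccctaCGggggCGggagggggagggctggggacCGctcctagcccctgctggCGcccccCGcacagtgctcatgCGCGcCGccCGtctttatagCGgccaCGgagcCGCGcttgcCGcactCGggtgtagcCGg
Efr3b: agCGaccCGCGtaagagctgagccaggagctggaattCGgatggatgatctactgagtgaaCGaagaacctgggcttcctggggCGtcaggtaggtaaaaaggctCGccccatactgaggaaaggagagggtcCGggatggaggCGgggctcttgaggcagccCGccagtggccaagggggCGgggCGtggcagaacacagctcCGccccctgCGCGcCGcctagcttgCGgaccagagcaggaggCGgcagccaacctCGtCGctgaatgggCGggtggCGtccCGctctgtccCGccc
Pax9: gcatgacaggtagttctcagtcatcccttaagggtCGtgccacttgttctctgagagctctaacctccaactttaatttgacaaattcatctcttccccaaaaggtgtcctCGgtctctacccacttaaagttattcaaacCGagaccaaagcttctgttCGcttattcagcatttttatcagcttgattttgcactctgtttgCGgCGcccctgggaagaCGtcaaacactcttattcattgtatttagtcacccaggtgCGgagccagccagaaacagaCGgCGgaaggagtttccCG

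CpG-rich start sites were common among all kinds of members. A window was matched for 381 of the 447 members, and 343 of those held at least 10 CpGs, beside 7539 of the 8973 matched genes on the 16 other autosomes (without chromosomes 18 and 19) and 14281 of all 32851 windows in the table. The motif is CG, which reads alike on both strands. The median was 24 CpGs for members that moved with the chromosome and 21 for those far below it, beside 21 on the other autosomes. It was 19 for those above it that were also higher in MEF-1, 26.5 for the others above it and 23.5 for those that could not be placed.

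To show the chromosome line by line, each gene's value was taken as its deviation from the mean of the 14 clonal lines and the median over the 447 members was read in each line. In the 7 MEF-1 clonal lines this median lay between −0.35 and −0.30 (mean −0.32 ± 0.017 SD, n = 7), and in the 7 MEF-2 clonal lines between 0.30 and 0.34 (0.32 ± 0.016 SD, n = 7). The clonal lines of each set lay within a narrow band and the sets were far apart. The MEF-2 parental line stood at 0.29, just under its clones, whereas the MEF-1 parental line stood at −0.05, above all its clones and below every MEF-2 line. The median over the other autosomes stayed between −0.011 and 0.021 in every line.

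**Figure D1:**
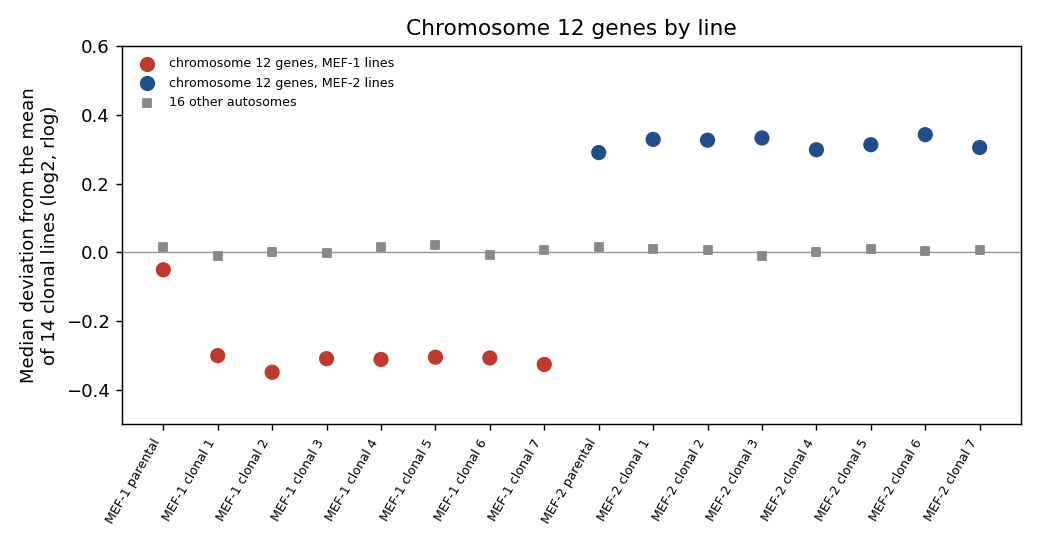
Median deviation of the 447 chromosome 12 genes (circles) and of genes on the 16 other autosomes (grey squares) from the mean of the 14 clonal lines, on the log2 scale, for each of the 16 lines. MEF-1 clonal lines lie at −0.35 to −0.30, MEF-2 lines at 0.29 to 0.34, and the MEF-1 parental line at −0.05.

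Between the clonal sets the median member was lower in MEF-1 by 0.63 (log2), which is 64.4% of its MEF-2 level. The chromosome was taken up because its median differs, so this shift and the number of members below 0 are a description and carry no test. Of the members, 397 (88.8%) had a difference below 0, against 50.5% of 11252 genes on the 16 other autosomes, whose median was −0.0049 and whose single-chromosome medians ran from −0.13 to 0.06. Chromosome 19 had a median of 0.37 and chromosome 18 one of −0.29. The middle 50% of members lay between −0.93 and −0.38, and 92 members (20.6%) were at −1 or below.

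The whole distribution was displaced and was about as wide as elsewhere. Its interquartile range was 0.551 (log2), beside 0.556 on the other autosomes together and 0.480 to 0.660 on each of them. Within 0.3 of the chromosome's median lay 232 members (51.9%), and within 0.3 of their own chromosome's median lay 53.5% of genes on the other autosomes. The extremes were Coch at −4.01 and Sntg2, which encodes a syntrophin of the dystrophin complex, at 5.36.

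**Figure D2:**
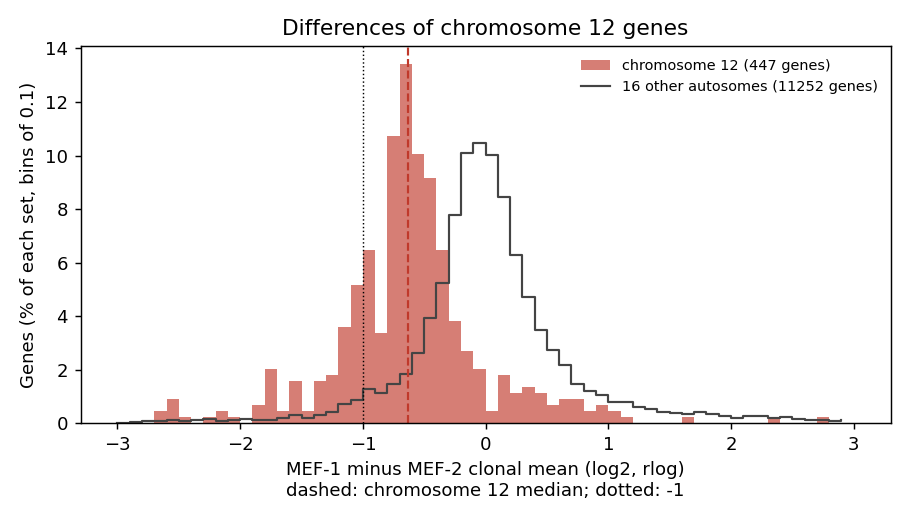
Share of genes (%) in bins of 0.1 by MEF-1 minus MEF-2 clonal mean (log2) for chromosome 12 (filled) and the 16 other autosomes (line), drawn from −3 to 3, which leaves 6 members outside. The chromosome 12 distribution centres at −0.63 (dashed) and has an interquartile range of 0.551 beside 0.556 for the other autosomes.

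Per gene, limma with Benjamini-Hochberg adjustment called 357 members (79.9%) lower in MEF-1 clones at an adjusted p under 0.05, where 27.1% of all 15278 genes tested were called lower. Since the choice of the chromosome fixed this in advance, nothing is read from the count or from those that follow in the same contrast. It called 26 members (5.82%) higher, where 29.2% of all genes were called higher, and 64 were not called. All 7 MEF-1 clones were below all 7 MEF-2 clones for 294 members (65.8%, beside 13.6% of all genes with a mean of at least 4), and all above for 11 (2.46%, beside 14.5%).

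Once each line's own chromosome median was subtracted, the shares of members called lay nearer to those of all genes in the fit. In this second fit 130 members (29.1%) departed upward from the chromosome in MEF-1, beside 30.2% of 15257 genes measured against their own chromosomes, and 137 (30.6%) departed downward, beside 26.6%. The remaining 180 members (40.3%) were not called in either direction. Shares of departing genes on chromosome 12 were thus within 5 percentage points of the background in each direction.

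Members were sorted by the 95% interval of their difference. A gene was said to move with the chromosome if its interval excluded 0 and its difference lay within 0.3 of the median, that is from −0.93 to −0.33. It was said to lie above or below the chromosome if its whole interval was more than 0.3 away. By this description 227 members (50.8%) moved with the chromosome, 53 (11.9%) lay above it, 52 (11.6%) lay below it and 115 (25.7%) could not be placed. On the other autosomes 14.4% of genes lay above their own chromosome's median by this rule and 10.4% below it. Of the 53 members above, 26 were called higher in MEF-1, 2 were called lower and 25 were not called.

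The level of a gene went with how closely it sat to the chromosome. Levels here count reads per gene, so longer transcripts have higher values. Among the 92 members with a mean of 8 to 10, 40.2% moved with the chromosome and the SD of the differences was 0.81, and among the 101 members with a mean of 12 to 14 these were 66.3% and 0.35. The medians hardly moved, from −0.58 to −0.67 over 6 classes of mean level. On the other autosomes the share of genes within 0.3 of their chromosome's median also grew with the level, up to a mean of 14. It was 25.3%, 24.2%, 43.1%, 58.6%, 68.0% and 67.6% in the classes from 4 to 6 up to 14 and over, where the members had 21.6%, 38.5%, 40.2%, 57.7%, 67.3% and 73.9%. The largest gap, at a mean of 6 to 8, rests on 52 members.

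Next come 5 genes taken as those closest to the chromosome's median, so their differences are fixed by that choice. They were Smc6, a subunit of the SMC5/6 complex of DNA repair, Coq6, Slirp, which binds mitochondrial mRNAs, Clmn (calmin) and Srp54b, a signal recognition particle subunit, with differences of −0.64 to −0.63. Coq6 had values of 9.38 to 9.57 in the MEF-1 clones (median 9.44) and 9.99 to 10.21 in the MEF-2 clones (median 10.11), with 9.74 and 9.99 in the parental lines. Its clonal groups did not overlap, and its MEF-1 parental line lay between them. Srp54b has the near-identical neighbours Srp54a (difference −0.72) and Srp54c (−0.62), among which reads may have been split in an uncertain way, and all 3 moved with the chromosome.

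The lists of genes by role stand beside all members, of which 79.9% were called lower in MEF-1 and 50.8% moved with the chromosome. Since the choice of the chromosome fixed most calls as lower, nothing is read from the counts called lower in a list. All 28 members of the list for translation and RNA processing were called lower in MEF-1 (median −0.67, range −1.07 to −0.28), 18 moved with the chromosome and none lay above or below it. Rps29, a protein of the small ribosomal subunit, had values of 13.71 to 14.01 (median 13.86) in MEF-1 clones and 14.33 to 14.62 (median 14.49) in MEF-2 clones. Its difference was −0.64 ± 0.05 (SE, n = 7 and 7). Rps7, of the same subunit, differed by −0.80 ± 0.07 and Eif5, the initiation factor that triggers GTP hydrolysis at the start codon, by −0.66 ± 0.08, and their clonal groups did not overlap either.

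The list for protein folding, degradation and the secretory pathway behaved alike. All 26 members were called lower (median −0.57, range −1.001 to −0.26), 20 moved with the chromosome and none lay above or below it. Hsp90aa1, the stress-inducible cytosolic chaperone, ran from 14.49 to 14.84 (median 14.62) in MEF-1 clones and from 15.30 to 15.75 (median 15.61) in MEF-2 clones. It lay at the lower edge of the group, at −0.93 ± 0.08. Laptm4a, a lysosomal membrane protein (−0.41 ± 0.07), and Pdia6, a disulfide isomerase of the endoplasmic reticulum (−0.33 ± 0.08), lay nearer to 0, and their clonal groups overlapped. The proteasome subunits, named after their values were seen, had differences of −0.51 (Psma3), −0.74 (Psma6) and −0.90 (Psmc1).

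Of 25 members in the list for mitochondria and metabolism 21 were called lower and 1 higher (median −0.62), and 16 moved with the chromosome. Dlst, a subunit of the 2-oxoglutarate dehydrogenase complex, differed by −0.67 ± 0.05, and Odc1, which makes the polyamine putrescine, by −0.57 ± 0.14. Ckb, the brain-type creatine kinase, was the single member of the list below the chromosome. It had values of 10.65 to 12.25 (median 11.68) in MEF-1 clones and 12.89 to 13.85 (median 13.26) in MEF-2 clones, a difference of −1.80 ± 0.22. Lpin1, a phosphatidate phosphatase (0.31), and Pnpla8, a phospholipase (−0.13), lay above the chromosome and are named after their values were seen.

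Of 15 members for the transcription machinery and chromatin, 14 were called lower (median −0.64) and 11 moved with the chromosome. The genes with the highest means in the list were Mta1, of a histone deacetylase complex (−0.46 ± 0.04), Gtf2a1, a subunit of the general factor TFIIA (−0.64 ± 0.04), and Ylpm1 (−0.42 ± 0.05). Gtf2a1 had 12.40 to 12.62 in MEF-1 clones (median 12.45) and 13.08 to 13.18 in MEF-2 clones (median 13.14), among the tightest pairs of groups shown. Outside the chromosome's band lay Baz1a, of a chromatin remodeller (−1.57), Taf1b, of the RNA polymerase I selectivity factor (−1.45), and Ncoa1, a nuclear receptor coactivator (0.17), all named after their values were seen.

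The list for DNA replication, repair and the cell cycle was displaced furthest among the 7 lists of more than 2 members. Of its 19 members 18 were called lower (median −0.89), 8 moved with the chromosome and 6 lay below it. These 6 were Rrm2, the regulated subunit of ribonucleotide reductase, Gen1, a Holliday junction resolvase, Pole2, of DNA polymerase epsilon, Mlh3, of mismatch repair, Vrk1, a mitotic kinase, and Ncapg2, of condensin II. Mlh3 had 6.45 to 6.97 in MEF-1 clones (median 6.78) and 9.01 to 9.81 in MEF-2 clones (median 9.41), a difference of −2.64 ± 0.13. Rrm2 ran from 10.11 to 11.42 (median 10.51) and from 11.84 to 12.84 (median 12.53), a difference of −1.85 ± 0.21. Smc6, Nin, a centrosomal protein (−0.89), and Nek9, a mitotic kinase (−0.32), had the highest means in the list, and Nek9 could not be placed. Replication and mitosis genes on other chromosomes were lower in MEF-1 clones too. Of 25 such genes, picked after the data were seen, 24 were called lower and none higher, with a median of −0.76 and a range from −1.17 (Mki67) to −0.14 (Gins2), so the part of proliferation and of chromosome 12 in the 19 genes was not tested.

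Signalling and developmental genes had members on both sides of the chromosome. Of 31 members in the list for signalling and transcription factors, 21 were called lower, 1 higher and 9 were not called (median −0.54), and 15 moved with the chromosome, a share near that of all members, 4 lay above and 4 below. Hif1a, the oxygen-regulated transcription factor, overlapped between the sets (13.78 to 14.80 and 14.43 to 15.10) at a difference of −0.44 ± 0.14. Akt1, the kinase downstream of phosphoinositide 3-kinase, did not overlap (13.82 to 14.13 and 14.45 to 14.64) at −0.57 ± 0.05. Tgfb3, a ligand of the TGF-beta family, lay below the chromosome with 13.57 to 14.21 (median 13.77) against 14.44 to 15.57 (median 15.31), at −1.31 ± 0.17. The 4 members above the chromosome, given after their values were seen, were Fos, an immediate early transcription factor (0.48), Nfkbia, which holds NF-kappaB in the cytoplasm (0.27), Traf3, an adaptor that restrains non-canonical NF-kappaB signalling (0.27), and Sos2, a Ras exchange factor (−0.17).

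Matrix, adhesion and cytoskeletal genes were similarly mixed. Of 24 members 18 were called lower and none higher (median −0.74), 10 moved with the chromosome, 4 lay above and 3 below. Dync1h1, the heavy chain of cytoplasmic dynein, moved with the chromosome (15.52 to 15.78 in MEF-1 clones, 16.14 to 16.34 in MEF-2 clones, difference −0.61 ± 0.06). Pxdn, which cross-links basement membrane collagen, did so too at −0.78 ± 0.07, and Actn1, an actin-bundling protein, had −1.17 ± 0.17 and could not be placed. Of the 4 interferon-response genes listed only 2 were members. Cmpk2, a mitochondrial nucleotide kinase, had 4.56 to 5.55 in MEF-1 clones and 3.75 to 4.91 in MEF-2 clones (0.79 ± 0.21), and Ifi27 differed by −0.17 ± 0.22. The 277 members in no list moved with the chromosome in 46.6% of cases, and the 170 in lists in 57.6%. Over all members this share rose with the mean level, which was not matched between lists or between listed and unlisted members. The part of role in these shares was not tested.

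Members with a mean of at least 8 that lay farthest below the chromosome were Coch, Fam49a, Mlh3, Sox11 and Dglucy. Coch ran from 5.41 to 6.62 (median 6.13) in MEF-1 clones and from 8.99 to 11.11 (median 10.09) in MEF-2 clones, with 6.35 and 10.25 in the parental lines. The sets did not overlap and differed by −4.01 ± 0.31. Fam49a had 5.19 to 7.16 (median 6.64) and 9.67 to 10.36 (median 9.86), a difference of −3.80 ± 0.32. Sox11, a transcription factor of embryonic progenitors and one of the more abundant members, had 11.15 to 12.68 (median 12.15) and 14.49 to 14.76 (median 14.64), a difference of −2.60 ± 0.18. Dglucy, a D-glutamate cyclase of mitochondria, differed by −2.18 ± 0.15. In the fit against the chromosome's own median these 5 departed by −3.37 to −1.55, with limma adjusted p from 1.15e-08 (Mlh3) to 1.9e-06 (Fam49a). The 5 were picked among members called in that fit, so these sizes and p-values are a description and carry no test.

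Farthest above the chromosome at a mean of at least 8 were Efr3b, Pax9, Rnf144a, Sgpp1 and Ttc7b. Efr3b had 8.61 to 9.33 in MEF-1 clones (median 9.21) and 7.25 to 8.85 in MEF-2 clones (median 8.10), a difference of 0.99 ± 0.22. Ttc7b, which with Efr3b belongs to the complex that holds phosphatidylinositol 4-kinase at the plasma membrane, had 11.20 to 11.58 (median 11.45) and 10.36 to 10.97 (median 10.87), a difference of 0.70 ± 0.10. Pax9 ran from 11.85 to 12.51 and from 10.29 to 12.42 (0.96 ± 0.27), and 1 MEF-2 clone reached into the MEF-1 range. Sgpp1, a sphingosine-1-phosphate phosphatase, had 10.50 to 11.06 and 9.65 to 10.30 (0.71 ± 0.11). Rnf144a, a ubiquitin ligase, differed by 0.76 ± 0.29, and its call as higher was lost when any of 8 single clonal lines was left out, each of 5 MEF-1 and 3 MEF-2 lines (limma adjusted p 0.0522 to 0.0821). Departures of these 5 from the chromosome were 1.33 to 1.62, with limma adjusted p from 5.71e-08 (Ttc7b) to 0.00103 (Rnf144a). These 5 too were picked among members called in that fit, so the values carry no test.

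Larger upward differences occurred at means under 8, and the genes of this paragraph are named after their values were seen. Sntg2 had 8.89 to 9.92 in MEF-1 clones and 3.91 to 4.06 in MEF-2 clones, with 7.67 and 4.00 in the parental lines. Tmem121 had 8.32 to 8.77 in MEF-1 clones and 4.71 to 5.30 in MEF-2 clones, while both parental lines were high (8.71 and 8.28). The low values of MEF-2 clones therefore set the difference of 3.61 for Tmem121, and for Sntg2 every MEF-2 line was low. In the other direction stood Map3k9, a stress kinase, with 5.14 to 5.83 and 8.35 to 9.44 (−3.62 ± 0.18), and Crip1, a LIM-domain protein, with 5.21 to 6.99 and 9.02 to 9.62 (−3.08 ± 0.23). Crip2, which lies near Crip1 on the chromosome, was at 8.38 to 10.61 and 8.32 to 9.35 (0.67 ± 0.29).

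**Figure D3:**
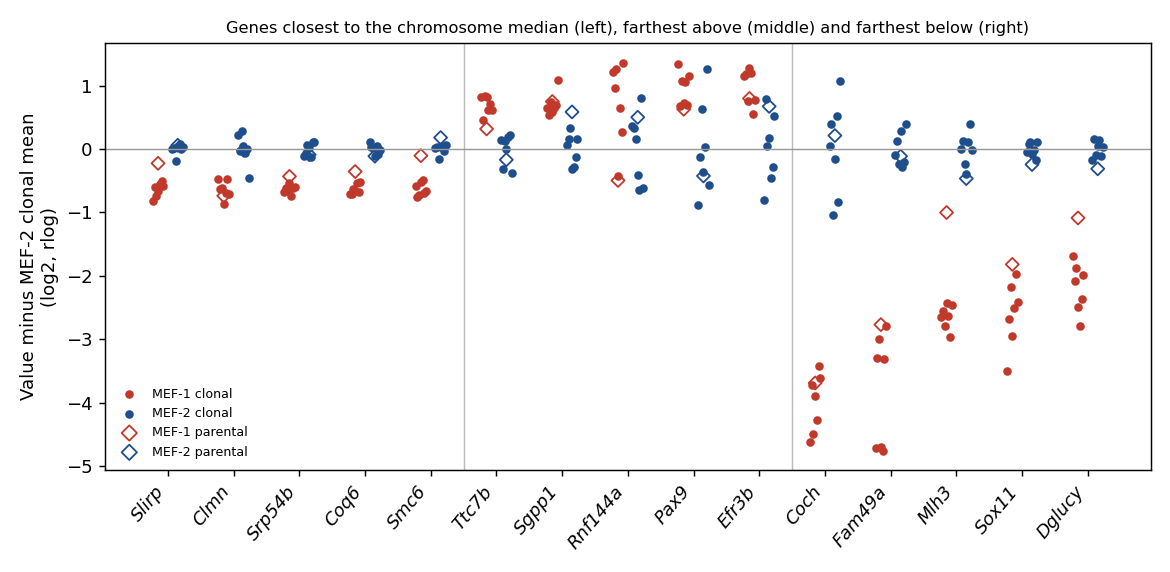
Values of single lines minus the MEF-2 clonal mean (log2) for the 5 genes closest to the chromosome's median (left), the 5 farthest above it (middle) and the 5 farthest below it (right) among members with a mean of at least 8, with 7 clonal lines (dots) and the parental line (diamonds) of each set. The left 5 differ by about −0.63, the middle 5 by 0.70 to 0.99 and the right 5 by −4.01 to −2.18.

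The difference ran along the whole chromosome. All 12 windows of 10 Mb had a median below 0, from −0.75 (10 to 20 Mb, 17 members) to −0.46 (40 to 50 Mb, 11 members). The window from 80 to 90 Mb held the most members, 86, with a median of −0.57. The window from 100 to 110 Mb held 10 of the 53 members above the chromosome, among its 56 members. The window from 40 to 50 Mb held 4 among 11. In 11 windows the median MEF-1 clonal minus parental difference was below 0 (−0.53 to −0.16), and in the window from 40 to 50 Mb it was 0.28. Each window held genes that moved with the chromosome and genes above or below it. Those above were not evenly spread, and the 5 Mb from 105 to 110 Mb held 7 of the 53 among 21 members, which was not tested.

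**Figure D4:**
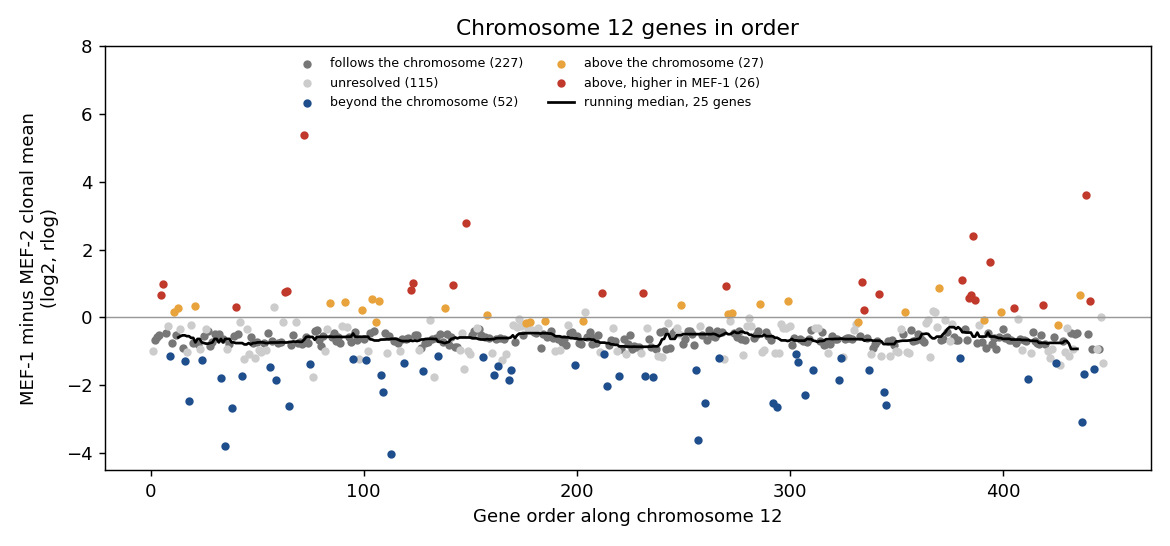
MEF-1 minus MEF-2 clonal mean (log2) of each of the 447 members in their order along chromosome 12, coloured by class ("beyond" marks genes below the chromosome), with the running median of 25 genes (black line). The running median stays below 0 along the chromosome, and every 10 Mb window holds genes above (53 in all) and genes below it (52 in all).

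Against the parental line of their own set the clonal sets stood differently. The median member was at −0.25 in MEF-1 clones relative to MEF-1 parental (−0.27 to −0.23 over the 7 lines) and at 0.015 in MEF-2 clones relative to MEF-2 parental (−0.0023 to 0.037). The same medians over the other autosomes were 0.00082 and −0.023. All 7 MEF-1 clones were below their parental line for 238 members (53.2%), beside 22.8% of all genes with a mean of at least 4, and all above for 34 (7.61%, beside 20.7%). In MEF-2 all 7 were below for 72 members (16.1%, beside 19.6%) and all above for 90 (20.1%, beside 16.3%). The 7 differences of a set share 1 parental library, so they are not independent of one another and no test was made.

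Single genes lay much farther from the parental line than the chromosome median did. Rrm2 and Mlh3 had the lowest mean differences in MEF-1 clones, at −1.67 and −1.64, where MEF-1 parental had 12.23 and 8.40. In the other direction Lrrn3, a leucine-rich repeat membrane protein, was 1.29 and Rnf144a 1.25 above the parental line. In MEF-2 clones Stxbp6, which binds SNARE proteins, was 1.06 and Dact1, an antagonist of Wnt signalling, 0.94 above the parental line. Klhl29 was 1.11 and Itgb8, the integrin subunit that activates latent TGF-beta, 0.71 below it. These 8 were chosen as the largest among members with a mean of at least 8 and all 7 clones on 1 side of the parental line, and genes with lower means, such as Tmem121 (−3.36 in MEF-2 clones) and Sntg2 (1.67 in MEF-1 clones), lay farther away. Dact1 was also at a clonal difference of −0.64 ± 0.15, and so moved with the chromosome between the sets, while its clonal mean lay above the parental line in both (by 0.30 and 0.94).

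The parental lines gave a difference from libraries that the clonal comparison did not use. MEF-1 parental minus MEF-2 parental had a median of −0.36 over the members, 77.9% of the MEF-2 level, and was below 0 for 393 members (87.9%). Its interquartile range was 0.338. Over the 447 members it went with the clonal difference, with a Pearson r of 0.748 and a Spearman rho of 0.657, given as a description over genes that share their 16 libraries and their embryos of origin. For 300 members (67.1%) the MEF-1 parental value lay between the clonal means of the sets. No such shares or correlations over genes of other chromosomes are given here, so these parental values are not read as particular to chromosome 12.

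Classes of members kept their order in the parental lines. Genes that moved with the chromosome had a median clonal difference of −0.63 and a median parental difference of −0.34. Those below it had −1.67 and −0.79. Those above it and called higher in MEF-1 had 0.78 and 0.18, and the other genes above it had 0.17 and −0.08. Relative to the parental line, the genes below the chromosome had a median of −0.69 in MEF-1 clones and 0.01 in MEF-2 clones, whereas the genes above it and called higher had 0.15 and −0.47. The classes were set by the clonal difference, so the direction of these clonal minus parental medians is partly built in.

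**Figure D5:**
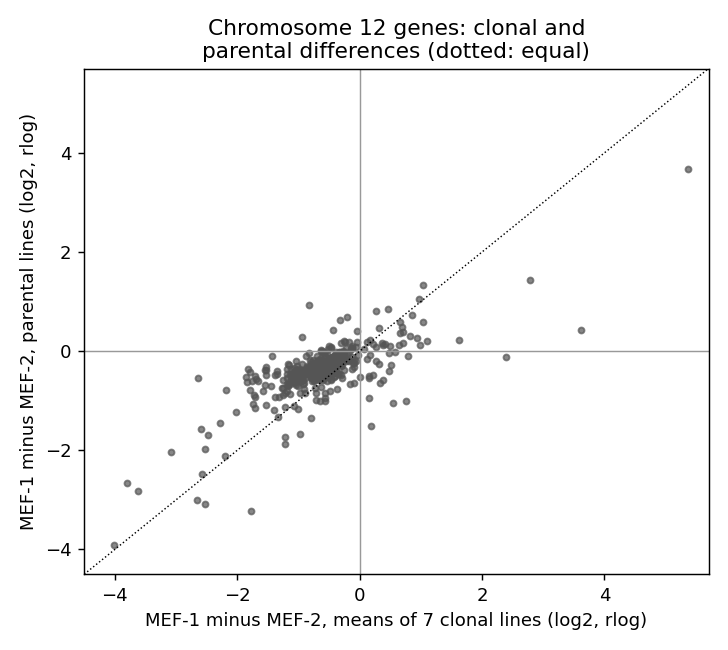
MEF-1 minus MEF-2 difference of the 2 parental lines against that of the clonal means (both log2), 1 point for each of the 447 members, with the dotted line marking equality. Most points lie in the lower left part, with medians of −0.63 (clonal) and −0.36 (parental).

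Variation between clones of a set was not larger on chromosome 12 than elsewhere. The SD between the 7 clonal lines had a median over members of 0.158 in MEF-1 and 0.137 in MEF-2, beside 0.177 and 0.150 over genes of the other autosomes.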

How the data were processed

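Values are deposited log2 values, rlog per gene, which the authors made with DESeq2 1.24.0 after Trim Galore 0.6.0 and Salmon 1.5.2 (mm10), per the labels. The rlog transform shrinks differences of genes with few reads. The table held 54453 genes in 16 lines, of which 54130 identifiers matched GENCODE M21, which gave positions. Each line was centred on the median of its autosomes' medians (largest shift 0.042). Differences were fitted with limma 3.58.1 in R 4.3.3 (trended prior) over 15278 protein-coding genes with a mean above 0, 7 clonal lines against 7, as written and again after subtracting each line's chromosome median (15257 genes). Named genes were the 3 highest means of each list, the 5 farthest on each side and the 5 closest to the median at a mean of at least 8, the largest clonal minus parental differences, and those at the edge of the mean of 4. The 5 farthest on each side were taken from members called in the second fit, and the 5 closest from members called lower. Members and lists were chosen with earlier results of these data known. The fits were tested on simulated data. Other centrings, means, tolerances, windows and left-out lines were tried. DNA methylation and DNA coverage were not analysed here. P-values measure the spread between clonal lines of 1 embryo each.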

Additional observations from a re-analysis of the deposited data

Results flagged for a closer look

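Among 88 sets of 7 clonal lines (2 for each of the 43 named genes and 2 for the chromosome's median), 4 held a line far from the others, where chance alone gives about 4.4. MEF-2 clonal 3 was low for Smc6 (12.79, the nearest other line 12.92) and for Slirp (10.43, nearest 10.62). MEF-2 clonal 5 was low for Lrrn3 (6.77, nearest 8.45), and MEF-1 clonal 7 was high for Sgpp1 (11.06, nearest 10.72).

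In 5 named genes all 7 MEF-1 clones lay below and all 7 MEF-2 clones above the parental line of their set. Singly, the MEF-1 pattern held for 53.2% of members and 22.8% of all genes with a mean of at least 4. The MEF-2 pattern held for 20.1% and 16.3%. Shares with both together were not counted, and several named genes were picked by their differences, so nothing is read from the 5. The mean differences in MEF-1 and MEF-2 were −0.78 and 0.24 for Sox11, −0.23 and 0.17 for Rps7, −0.28 and 0.11 for Coq6, −1.64 and 0.46 for Mlh3, and −1.09 and 0.31 for Dglucy. Whether the sets differ in this was not tested, since each parental line has 1 library.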

How the results depend on the processing

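With every gene of a mean above 0 kept, the median difference was −0.59 and its interquartile range 0.639, and a tolerance of 0.2 gave 84 members below the chromosome. With no centring the MEF-2 clonal minus parental median was 0.041. That setting leaves out the centres otherwise subtracted, −0.010 to 0.042 in MEF-2 clonal lines and −0.0088 in MEF-2 parental. The cause of the other changes was not tested. Leaving out 1 clonal line at a time gave a median of −0.640 to −0.628, an interquartile range of 0.522 to 0.581, 349 to 358 members lower, 24 to 30 higher, 220 to 237 moving with the chromosome, 50 to 58 above it and 45 to 54 below it, and 120 to 133 and 128 to 135 departing upward and downward. Of 731 alternatives over 43 named genes 716 left direction and call as they were. Rnf144a lost its call in 8, and the sign turned for Ifi27 without MEF-1 clonal 7 (0.039, range over left-out lines −0.290 to 0.039) and in 6 for Itgb8 (−0.118, −0.061, −0.051, −0.083, −0.016 and −0.026 without MEF-1 clonal 2, 6 and 7 and MEF-2 clonal 3, 4 and 5, range −0.118 to 0.105). Neither gene was called in any of them.

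Clone numbers do not pair the lines: same-numbered clones correlated at −0.133 to 0.199, over 0.1 in 2 of 7 pairs, and 1 line of 7 correlated best with its own number. With the clone number as a block 353 members were lower, 26 higher, and 122 and 129 departed upward and downward. Without counts, depth could not be used to judge single low genes.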

Other observations

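Several members above the chromosome lay close together from Bcl11b (start at 107910403) to Begain (end at 109068217, both mm10), next to the interval that was set aside, and the stretch was picked after its values were seen, with no test. Higher calls in MEF-1 clones made up 5.82% of all members and 29.2% of all 15278 genes tested. In this stretch 6 of 14 members were called higher. They were Bcl11b, a transcription factor of T-cell and neuronal development (1.11), Ccdc85c (0.57), Hhipl1 (0.65), Cyp46a1, the cholesterol 24-hydroxylase (2.40), Eml1, a microtubule-associated protein (0.51), and Begain (1.62). Their neighbours Setd3 (−0.34), Ccnk (−0.67), Evl (−0.76), Slc25a29 (−0.71), Wars (−0.89) and Wdr25 (−0.44) moved with the chromosome. Yy1 (−0.22) could not be placed and Slc25a47 (−0.09) lay above. The median of the 14 was −0.15.

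In both Cyp46a1 and Begain the MEF-2 clones lay below their parental line, and in Cyp46a1 the MEF-1 clones also lay above theirs. In Cyp46a1 the MEF-1 clones lay at 5.61 to 7.14 with the parental line at 5.27, and the MEF-2 clones at 3.37 to 4.62 with the parental line at 5.38. In Begain the parental lines were alike (6.53 and 6.31), and the MEF-2 clones lay at 4.82 to 5.28.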
